A study of Drosophila melanogaster with 20 samples.

Results

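The transcripts described here were those whose level was higher in the normal pupal wing than in the larval wing, and for which this stage difference was smaller in wings that expressed an activated form of Thickveins. They were chosen on group means of normalized log2 intensity. Pupal controls had to exceed larval controls by at least 0.6, pupal Tkv wings had to lie below pupal controls by at least 0.6 and on all 5 pairs of arrays with the same replicate number, and the larval Tkv and control means had to differ by less than 0.35. The rule was met by 89 of 15473 transcripts, 0.575% of those measured. It used all 4 groups of the study, so the size and direction of the stage difference and of the Tkv differences in these transcripts are descriptions. Counts of limma calls are given for them below only to show how clearly the members met the rule.

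Thickveins (Tkv) is a type I receptor for Decapentaplegic, a secreted ligand of the BMP family. An active receptor phosphorylates the transcription factor Mad, which enters the nucleus with Medea, represses the repressor gene brinker and acts on other target genes. In the larval wing disc this pathway sets growth and the position of the veins, and in the pupal wing it acts again in the differentiation of the veins, together with EGFR signalling. Between the larval and the pupal stage the wing everts from the disc, cell division comes to an end, and the epithelium prepares to form wing hairs and cuticle.

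Total RNA of Drosophila melanogaster wings was hybridised with the dye Cy3 to 20 NimbleGen arrays, in 4 groups of 5 arrays with 10 dissected wings per sample. The groups were wandering larvae of the last instar without the transgene, such larvae with activated Tkv under UAS control, pupae 24 h after pupa formation without the transgene, and pupae of that age with it. Controls were of a matched strain that lacked the UAS construct. Animals of all groups were kept at 18 °C and moved to 28 °C for 10 h before dissection, which switches on expression through Gal4. Larval and pupal Tkv wings were therefore separate inductions, each in the 10 h before dissection. In pupal Tkv wings, a rise that did not occur and a level that rose and then fell cannot be told apart. The labels name neither the Gal4 driver nor the cells in which it is active, and no other allele. Any other difference between the strains entered the Tkv comparisons too. In whole dissected wings, fewer cells of a type and less RNA per cell cannot be told apart.

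Each array read a transcript with 3 to 5 probe pairs, and intensities after the authors' processing lay between 12.2 and 62182. The arrays came from 5 slides, with 1 array of every group on each, and arrays with the same replicate number sat on the same slide. The distribution of normalized values had a low and a high peak, and the lowest point between them, 8.68 on the log2 scale, is used below to call a value dim or bright. Transcripts are known by FlyBase transcript ID. A RefSeq gene table gave 1 symbol for 17 of the 15473 IDs, and none of the 89 was in it. The roles of the 89 and the lists of pathway genes and cell type markers could therefore not be read, the tissue label could not be checked against markers, and the transcripts are described by ID, level and pattern. For the same reason the tkv transcript itself was not examined.

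In pupal controls the 89 transcripts were higher than in larval controls by 0.62 to 7.04 on the log2 scale, with a median of 1.97, or 3.92-fold. In pupal Tkv wings they were lower than in pupal controls by 1.53 to 6.89-fold. The median log2 difference was -0.85, or 1.80-fold, and 28 transcripts differed by at least 2-fold. The median level of the 89 was 6.05 in larval controls, 6.16 in larval Tkv wings, 8.52 in pupal controls and 7.56 with activated Tkv in pupae. A typical member thus lay near its larval level on the larval arrays of both genotypes, was higher in pupal controls, and took an intermediate level in pupal Tkv wings. The plot of both differences sets these transcripts among all others. The axes share the 5 pupal control arrays: where those arrays read high by chance, the stage difference is larger and the Tkv difference more negative.

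**Figure D1:**
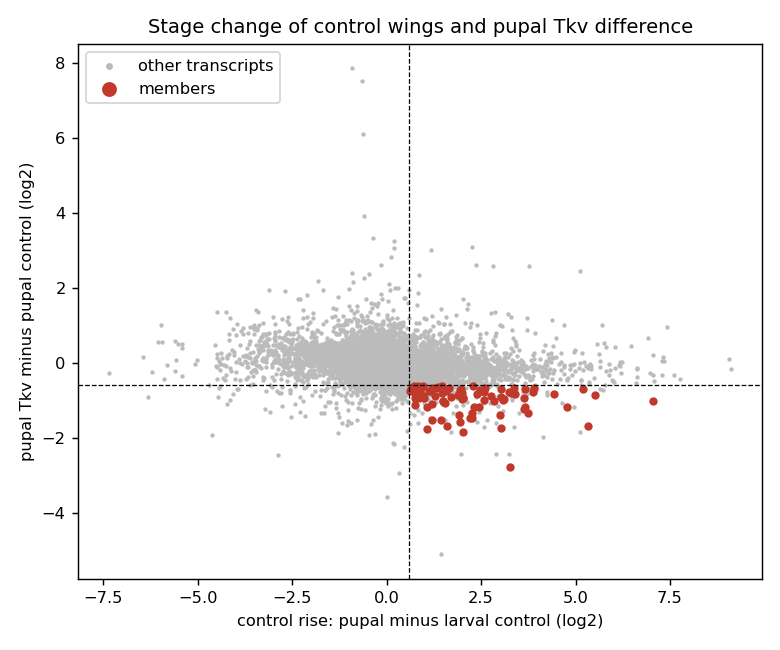
Each point is 1 of 15473 transcripts, with the pupal minus larval difference of control wings on the horizontal axis and the Tkv minus control difference of pupal wings on the vertical axis, both in log2 units. The 89 members, in red, lie right of 0.6 and below -0.6 (dashed lines), with the lowest at -2.78; grey points in the same corner failed the sign or the larval condition.

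The number of transcripts shrank with each condition. A control rise of at least 0.6 was met by 2269 transcripts, and 1750 of these also met the larval limit. Of those, 162 lay at least 0.6 lower in pupal Tkv wings, and 73 of the 162 did not have that sign on all 5 pairs. The 89 made up 3.92% of the transcripts with a control rise. The count was 136 when replicate 4 of the pupal controls was left out, and 77 of the 89 were among the 136. The sign was then required only on the pairs that remained, a looser condition. With Tkv higher in place of lower and all other conditions alike, 31 transcripts met the rule. This is not an even counterpart, since both rules first require high pupal controls, which also enter the Tkv difference. Of the 2269 transcripts with a control rise, 68.7% had a pupal Tkv difference below 0.

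The largest pupal difference was that of FBtr0077375. Its pupal control arrays read 8.12, 8.45, 8.94, 8.63 and 9.10 in order of replicate number, and its pupal Tkv arrays 5.80, 5.68, 5.70, 5.94 and 6.20. Larval controls read between 4.91 and 5.78, and larval Tkv wings between 4.67 and 5.53. The pupal groups were thus far apart, and the pupal Tkv arrays overlapped the upper end of the larval ones. In controls the transcript was higher at the pupal stage by 3.27 ± 0.21 (log2, SE of the limma fit, n = 5 per group), from a dim larval level. In pupal Tkv wings it was lower than in pupal controls by 6.89-fold (log2 -2.78 ± 0.21), which left 24.7% of the control rise.

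FBtr0071788 followed with a log2 difference of -1.83 ± 0.16 (SE, n = 5 per group). It was a brighter transcript, at 10.55, 10.87, 10.85, 10.14 and 10.94 in pupal controls against 8.95, 8.79, 8.60, 9.01 and 8.82 in pupal Tkv wings. No pupal Tkv array reached the lowest pupal control, and their mean of 8.83 ± 0.16 (SD, n = 5) lay close to the larval control mean of 8.65 ± 0.20. The share of the control rise seen between larval and pupal Tkv wings was 23.1%.

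FBtr0084582 was below its larval level in pupal Tkv wings. It read 10.72, 10.31, 10.28, 10.49 and 10.59 in pupal controls against 8.49, 8.86, 8.97, 8.55 and 8.68 in pupal Tkv wings. Larval controls lay between 9.27 and 9.51. Every pupal Tkv array was therefore below every larval control array, and it was the only one of the 89 with that pattern. The larval Tkv arrays ranged from 8.89 to 9.37 and overlapped both groups.

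The other 3 of the 6 largest pupal differences were less even between arrays. FBtr0082898 had a mean of 7.70 ± 0.68 (SD, n = 5) in pupal controls against 5.97 ± 0.68 in pupal Tkv wings, and replicate 3 of the Tkv wings, at 7.12, exceeded replicate 4 of the controls, at 6.59. FBtr0085936 was nearly alike in both larval groups, at 4.80 ± 0.63 and 4.81 ± 0.42, and stood at 10.13 ± 0.95 in pupal controls against 8.46 ± 0.63 in pupal Tkv wings. FBtr0089326 varied most: its SD was 1.50 in larval controls and 1.12 in pupal controls, where 2 arrays read 10.47 and 10.48 and the other 3 between 8.37 and 8.47. For these 3 transcripts the pupal groups overlapped, unlike for the first 3.

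**Figure D2:**
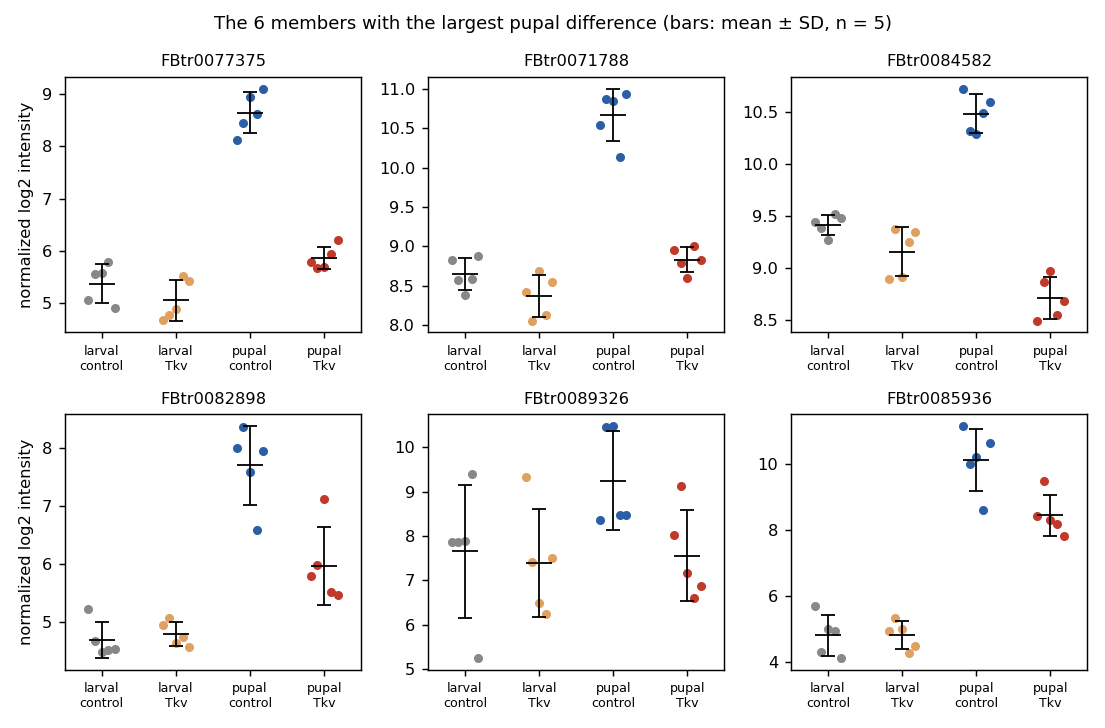
Normalized log2 intensity of the 6 transcripts with the largest pupal difference on each of 5 arrays per group (points, replicates 1 to 5 from left to right), with mean ± SD as bars; each panel has its own vertical range. Pupal control and pupal Tkv points are separate in the 3 upper panels and overlap in the 3 lower ones.

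Over all members, the 5 pupal Tkv arrays lay wholly below the 5 pupal controls for 46 of 89, against 2.22% of all transcripts with that pattern. Since the rule chose on the same arrays, the gap between these shares says nothing beyond the choice. For 24 members the pupal Tkv arrays lay between the control groups without overlapping either, against 0.62% of all transcripts and 4.1% of those with a control rise. For 45 they overlapped the larval controls, against 69% of all transcripts and 25.9% of those with a control rise. The rule chose on these arrays too, so these gaps also say nothing beyond the choice. On all 5 pairs the difference was -0.6 or lower for 12 members, and for 18 the weakest pair differed by less than 0.1.

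The limma test of the pupal difference, with Benjamini-Hochberg adjusted p under 0.05 over all transcripts, called 48 of the 89 as lower in Tkv wings, against 1.54% of all transcripts called lower. The count was 27 without the arrays of replicate 3 and 28 without those of replicate 5, and 32 when the pupal arrays were fitted alone. In the same fits 266, 306 and 289 of all transcripts were called in either direction, against 489 with all 20 arrays. The test of the stage dependence of the Tkv difference called 10 members, against 0.246% of all transcripts called in that direction. It called 5 members without replicate 1, 2 or 3, where its calls over all transcripts were not counted. The control stage difference was called as higher in pupal wings for 85 members, against 19.7% of all transcripts. The rule used these contrasts or fixed their sign, so the counts describe how clearly the members met it.

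On larval arrays none of the 89 was called between Tkv and control wings, against 1.4% of all transcripts called, and none had separate groups, against 3.35% of all transcripts. A limma p under 0.05 before adjustment was seen for 1 member and for 9.75% of all transcripts. The limit of 0.35 on the larval difference removes such transcripts by construction. Within it, 53 members were lower and 36 higher in larval Tkv wings, with a median of -0.05. The larval difference had the same sign on all 5 pairs for 6 members, lower in 5 and higher in 1. The share of all transcripts with that pattern was not counted, so nothing is drawn from this number.

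The share of the control rise kept in Tkv wings was expressed as the difference between pupal and larval Tkv means over the difference between pupal and larval control means. It ranged from -53.7% to 90.2% over the 89, with a median of 48.5% and quartiles of 23.1% and 71.3%. Among all 2269 transcripts with a control rise of at least 0.6 the median was 88.2%, with quartiles of 68.6% and 106%. The share is made up of the same differences that the rule used, and the rule selects for low shares. The gap between the members and all these transcripts therefore says nothing beyond the choice. The share was below 0 for 9 members, 0 to 25% for 15, 25 to 50% for 22, 50 to 75% for 27, and above 75% for 16. The members thus spread from a pupal Tkv mean no higher than the larval Tkv mean to a stage difference most of the size seen in controls. Kept stands here for a difference between separately induced groups, not for a course followed over time. A larval difference within the limit also enters the share, and weighs most where the control rise is small.

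Between the stages of Tkv wings, limma called 53 of the 89 as higher in pupal wings, against 18.9% of all transcripts, and 2 as lower, against 20.5%. This comparison uses other arrays than the control stage difference, but its mean follows from the 3 differences in the rule. Whole separation of pupal above larval Tkv arrays was seen for 41 members, against 13.7% of all transcripts. The corresponding count for control wings was 72, against 15.8%. All transcripts are an unlike baseline here, since the members were chosen for a control rise. These shares were not counted among the 2269 transcripts with a control rise. Their median Tkv stage difference was 1.10, against 0.85 in the members.

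At the low end stood FBtr0079739, FBtr0079414, FBtr0084582 and FBtr0100515, which kept -53.7%, -51.7%, -41.9% and -37.2% of the control rise. Their control rises were small, from 0.74 to 1.20 on the log2 scale. FBtr0079739 read 10.28, 9.85, 9.25, 9.38 and 10.16 in pupal controls against 7.55, 8.07, 8.26, 8.54 and 8.93 in pupal Tkv wings, and its larval Tkv arrays were at 8.75 to 9.09. Its pupal Tkv mean of 8.27 ± 0.51 (SD, n = 5) was below both larval means, 8.58 ± 0.23 and 8.92 ± 0.15, although single arrays overlapped. FBtr0079414 had pupal Tkv values from 8.89 to 10.50 that spanned the whole larval control range of 9.39 to 10.30. In FBtr0100515 the SD reached 1.32 in larval Tkv wings, more than its control rise of 1.08, and the ranges of its 4 groups overlapped. In all, 12 members had a pupal Tkv mean under the larval control mean.

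At the high end, FBtr0074319, FBtr0085859, FBtr0081013 and FBtr0070959 kept 90.2%, 87.4%, 84.5% and 84.5%. Their control rises were 5.20, 4.43, 3.37 and 3.37. FBtr0074319 read 11.43, 11.35, 11.86, 11.34 and 11.95 in pupal controls against 10.62, 10.96, 11.18, 10.81 and 10.83 in pupal Tkv wings, so the groups were separate by a small gap. Both lay far above the larval arrays, which ranged from 5.77 to 6.72 over both genotypes. FBtr0085859 overlapped between the pupal groups, since replicate 1 of the controls was at 11.60 and the Tkv arrays reached 11.72.

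The largest control rise of the 89 was that of FBtr0083320, from 5.89 ± 0.19 to 12.93 ± 0.19 (SD, n = 5). All its larval arrays were dim, so the size of this rise depends on readings that were not shown to be above background. The Tkv means were 6.16 ± 0.33 in larval and 11.92 ± 0.28 in pupal wings. The 5 pupal Tkv arrays (11.50 to 12.20) were all below the 5 pupal controls (12.70 to 13.21), and the log2 difference was -1.01. FBtr0079503 came next, with a control rise of 5.51 and a pupal difference of -0.85. Its pupal controls ranged from 10.65 to 12.18 and its pupal Tkv arrays from 10.28 to 10.77, with a slight overlap.

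The share kept and the size of the rise were linked by the rule. Where the pupal difference is of similar size, a larger rise leaves a larger share. The 20 members with a rise of 0.6 to 1 had a median pupal difference of -0.72 and kept a median of 11.97%. In the 28 with a rise of 1 to 2 these medians were -0.89 and 39.8%, in the 35 with a rise of 2 to 4 they were -0.93 and 63.2%, and in the 6 with a rise of 4 or more -0.93 and 81.0%. From the second class upward the pupal difference was therefore nearly level while the share climbed with the rise, as the plot of the share kept shows.

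**Figure D3:**
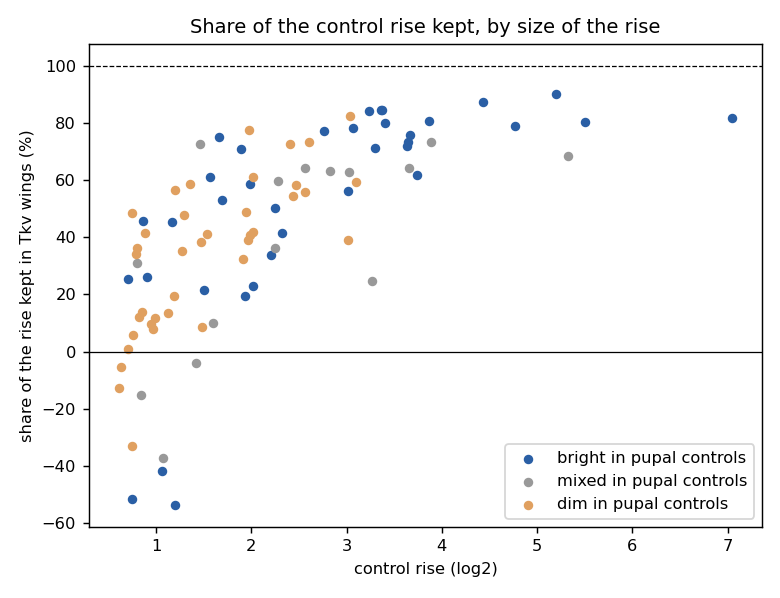
Each point is 1 of the 89 members, with its control rise in log2 units on the horizontal axis and the percentage of that rise kept in Tkv wings on the vertical axis, coloured by brightness in pupal controls (bright, 36 members with all 5 arrays above 8.68; dim, 38 with all 5 at or below it; mixed, 15). The dashed line marks an equal stage difference in both genotypes and the solid line marks none in Tkv wings; values climb from about -54% at small rises to about 90% at large ones.

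Most members were dim before pupa formation. The size and order of control rises from dim larval levels, the median rise and the shares kept included, rest on readings not shown to be above background. In larval controls 68 of the 89 (76.4%) lay below 8.68 on all 5 arrays, against 44.3% of all transcripts and 40.8% of the 1231 transcripts with a control rise that moved by less than 0.35 under Tkv at either stage. The share was 52.9% in all 2269 transcripts with a control rise and 71.0% in the 31 that were higher in Tkv wings. In the 49 transcripts lower in pupal Tkv wings without a control rise it was 57.1%. A dim larval level was thus not particular to the members. Of the pupal groups, controls had 36 bright, 38 dim and 15 mixed members, and Tkv wings 28, 52 and 9. Only 3 went from dim in larval controls to bright in pupal controls and were dim on all pupal Tkv arrays. Another 12 went from dim to bright and were bright in pupal Tkv wings too. For 38 members every control and pupal Tkv array was dim, the range in which RMA, the processing the authors used, is known to compress differences.

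The counts were also taken by brightness, on the arrays the rule used and with no test between the classes. Of the 36 that were bright in pupal controls, limma called 27 in the pupal comparison and 27 had separate pupal groups, against 1.8% and 3.15% of all transcripts bright there. Of the 38 dim ones these counts were 14 and 12, against 1.09% and 1.06% of all dim transcripts. Of the 15 mixed ones they were 7 and 7, against 2.91% and 2.78%. The median pupal difference was similar, at -0.87, -0.80 and -1.01 for bright, dim and mixed members. The median SD of the pupal controls was lower in bright members, at 0.32 against 0.44 and 0.55. A median of 66.2% of the rise was kept in bright, 39.0% in dim and 59.9% in mixed members. This split was chosen after the values were seen.

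Spread and array measures that the rule did not use directly are given beside those of other transcripts. The members' median within-group SD was 0.34, against 0.26 over all transcripts and 0.25 in the 1231 little-moved ones. The median SD was highest in their pupal controls, at 0.39, and 0.31, 0.33 and 0.33 in larval controls, larval Tkv and pupal Tkv wings. The deposited error column, a score from 0 to 1 that is lower for dim transcripts, had a median of 0.806 in the members and 0.913 over all. Probe pairs numbered 4 for 29 members and 5 for 60, and 32.6% with 4 pairs compares with 34.6% of all. The 31 transcripts with a control rise that were higher in Tkv wings had a median level of 6.28 in larval controls and 9.63 in pupal controls, against 6.05 and 8.52 in the members, and a median SD of 0.33. The part of level and spread in the choice of members was not tested.

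Member levels were also compared between the arrays of a group. The median level of the 89 was 8.27 to 8.70 on the pupal control arrays and 7.29 to 7.65 on the pupal Tkv arrays, so these medians did not overlap. On the larval arrays it was 6.12 to 6.25 in controls and 6.01 to 6.30 in Tkv wings, with overlap. The median deviation of the members from their group mean was largest for replicate 4 of the pupal controls, at -0.13, and lay between -0.12 and 0.12 on the other 19 arrays. On the 5 slides taken singly, the median pupal difference was -0.89, -0.89, -0.91, -0.71 and -0.88 for replicates 1 to 5. The smallest, on slide 4, carried the low pupal control array.

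**Figure D4:**
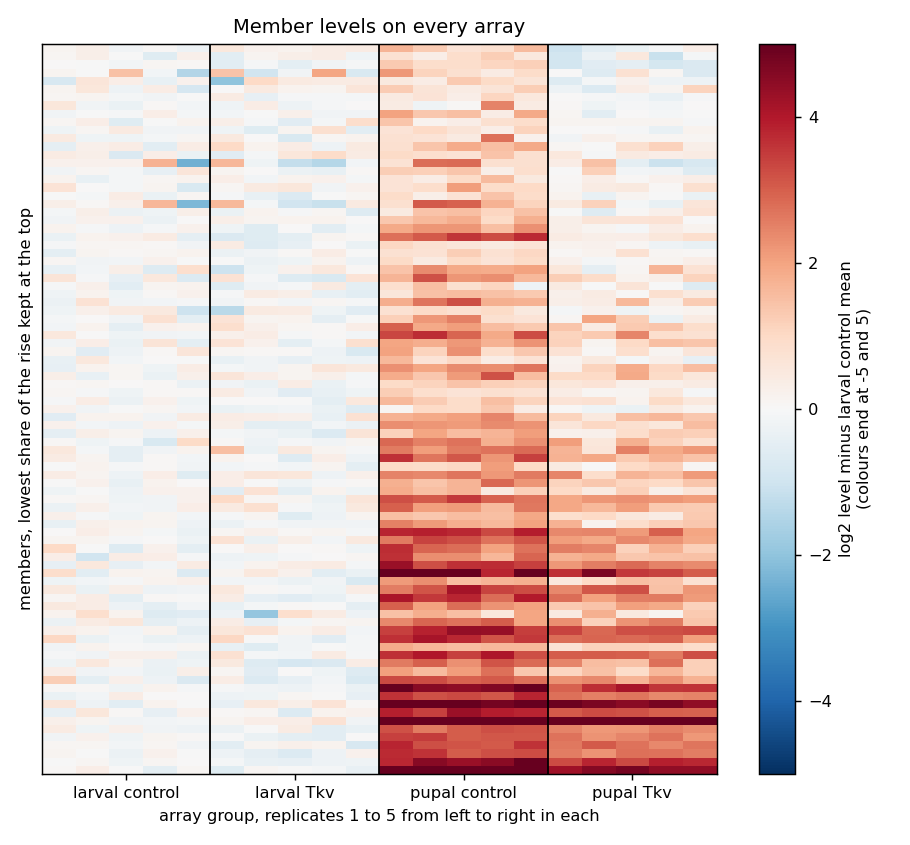
Rows are the 89 members ordered by the share of the control rise kept in Tkv wings, columns are the 20 arrays in 4 groups of 5, and colour is the normalized log2 level minus the row's larval control mean. Most larval cells are pale, with single arrays of a few rows far from 0, and most pupal control cells are red. The pupal Tkv block changes from mostly pale at the top (shares below 0) to red at the bottom (up to 90.2%).

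The pupal difference was also read on arrays that had not been used for the choice. The rule was applied to the 16 arrays of 4 replicate numbers, and the pupal difference of the transcripts it chose was taken from the number left out. Between 103 and 127 transcripts were chosen, of which 61 to 80 belonged to the 89. The sign was required here only on the 4 pairs used, a looser condition than for the 89. On the left-out pair their median difference was -0.68, -0.38, -0.54, -0.23 and -0.67 for numbers 1 to 5, against -0.81 to -0.86 on the arrays used for the choice. The difference was smaller on unused arrays in all 5 cases.

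Of the transcripts chosen in this way, 54.8%, 36.4%, 48.3%, 26.8% and 54.4% lay at -0.6 or lower on the left-out pair. Over all transcripts these shares were 8.31 to 14.7%, and over those with a control rise on the same 16 arrays 14.6 to 21.4%. Values below 0 were found for 59.8 to 82.5% of the chosen transcripts and for 46.0 to 52.1% of all. The lowest shares in both respects came when number 4 was left out, and there 47.5% of the transcripts with a control rise were below 0, against 57.7 to 64.1% for the other numbers. Transcripts that were bright on all 4 pupal control arrays used lay at -0.6 or lower in 29.6 to 67.4%, and the others in 24.7 to 53.2%. Among all transcripts of these kinds the shares were 3.70 to 8.20% and 12.9 to 21.6%. With number 4 left out, the chosen transcripts that were not bright had a median of 0.02 on the left-out pair. Only 35 of these 73 were below 0 there, and 24.7% lay at -0.6 or lower, against 19.1% of all such transcripts.

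**Figure D5:**
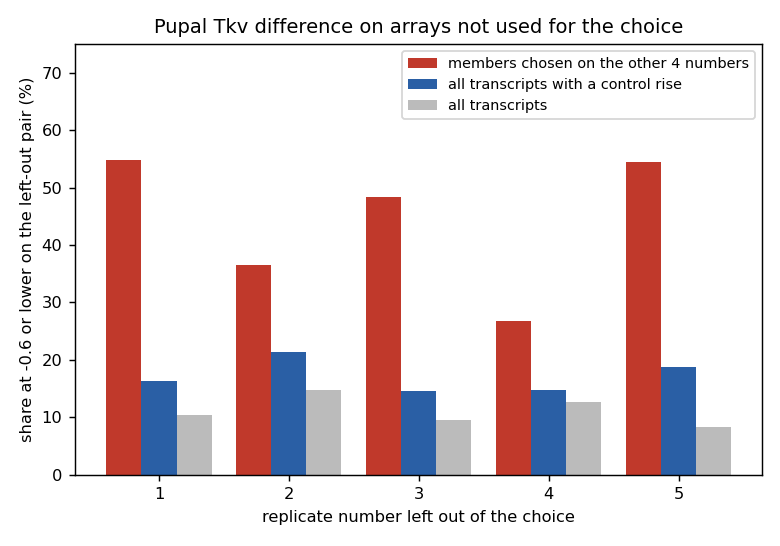
Bars give the percentage of transcripts with a pupal Tkv minus control difference of -0.6 or lower on the pair of arrays left out, for the transcripts chosen on the other 4 replicate numbers (red), all transcripts with a control rise on those arrays (blue) and all transcripts (grey). The red bars reach 26.8 to 54.8% and are above the blue and grey bars for each number left out.

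Membership varied with the arrays used. Of the 89, 35 were chosen in all 5 of these selections, 28 in 4, 14 in 3, 9 in 2, 2 in 1 and 1 in none.

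The members next to the limit differed little from the transcripts beyond it. Just inside -0.6 were FBtr0072254, FBtr0084317 and FBtr0072367, with pupal differences of -0.61, -0.62 and -0.62. Just outside, with all other conditions met, were FBtr0086470, FBtr0088656 and FBtr0081191, at -0.59, -0.59 and -0.58. Within both sets single pairs varied more than these gaps: FBtr0072254 was at 5.80 in replicate 2 of the pupal controls and 5.77 in replicate 2 of the Tkv wings, while replicate 1 read 7.01 and 5.75. FBtr0088656 had a control rise of 5.79 and pupal pair differences from -1.87 to -0.06.

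Another 49 transcripts were lower in pupal Tkv wings without a control rise. They met the same pupal, sign and larval conditions with a control stage difference between -0.6 and 0.6. Their median pupal difference was -0.74, against -0.85 in the members. Their median level was 7.43 in larval and 7.32 in pupal controls. With activated Tkv the pupal median was 6.63. Both sets were chosen on the pupal difference, and the difference between them was not tested.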

How the data were processed

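Wings of 4 groups of 5 samples were compared; groups and replicate numbers came from sample titles and slides from file names. The authors deposited 1 intensity per transcript and array on a linear scale, made with RMA per the submitters' processing notes. Its version and settings and the genome build were not given in the sources used here. A series table, also deposited, gives the same values on the log2 scale (largest deviation 5.0e-09). A deposited error column (a score from 0 to 1, unit not stated) and a deposited number of probe pairs were used only to describe transcripts.

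Log2 values were quantile-normalized over the 20 arrays, because deposited medians differed by up to 0.40, and no transcript was filtered. Quantile normalization cannot show a shift of all transcripts in 1 direction. Tests used limma 3.58.1 in R 4.3.3 (4 group means, 16 residual degrees of freedom, two-sided, Benjamini-Hochberg adjusted p under 0.05 over 15473 transcripts) and were tested on simulated data. File lists were read with jsonlite 2.0.0. Plots were made with matplotlib 3.10.9 under Python 3.11.15. The boundary of 8.68 is the lowest point between the modes of the density of normalized values (bandwidth 0.25).

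The members, lists and splits were chosen with earlier results of these data known. Transcripts given by ID by rule were the 6 with the largest pupal difference, the 4 with the largest control rise, the 4 with the lowest and the 4 with the highest share kept, and the 3 on each side of the pupal limit. FBtr0071740 and 2 pairs of consecutive IDs (FBtr0079610 and FBtr0079611, FBtr0082438 and FBtr0082439) were added after their values were seen. The 17 lists of pathway genes and markers could not be used, since no member has a symbol. Same-numbered arrays did not deviate together throughout (Pearson -0.19 to 0.24 over transcripts), so the fit has no replicate block. The relation between animals of different samples is not described, so p-values measure the spread between samples. Precision is limited by the number of arrays. No 2 arrays of a group were alike; the lowest median absolute difference was 0.184.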

Additional observations from a re-analysis of the deposited data

Results flagged for a closer look

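In 2 of the 88 groups of 5 arrays examined (4 groups for each of 21 transcripts given by ID, and the median level of the members), a single array stood well apart from the rest of its group. Chance alone flags about 1 in 20 groups. FBtr0082898 read 5.225 in replicate 1 of the larval controls, above the other 4 at 4.48 to 4.66, which lowers its control rise slightly. FBtr0072254 read 5.582 in replicate 5 of the pupal Tkv wings, below the other 4 at 5.75 to 5.77.

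FBtr0071740 was the only 1 of the 89 with a larval difference above 0 and a pupal difference below 0 on all 5 pairs. The rule required the pupal sign of every member, so only the larval sign sets it apart. Its pupal difference was -0.6859 and its larval difference 0.35, just inside the larval limit, with pair values from 0.20 to 0.55. It was singled out after its values were seen, and the limma test of the difference between its pupal and larval responses did not pass (adjusted p = 0.154).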

How the results depend on the processing

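The number of members was 82 to 89 without further normalization, with median centring and with the series table, and 78 without the dimmest 25% of transcripts, and 74, 74, 89 and 75 of these belonged to the 89. It was 27 with limits of 1.0 in place of 0.6, 52 with a larval limit of 0.2, 162 with no sign condition and 46 when the pupal groups had to be separate. Leaving out 1 larval array gave 80 to 89 members. The number was 99 to 136 without 1 pupal array and 103 to 127 without 1 replicate number. For pupal arrays and replicate numbers the sign was required only on the pairs that remained, a looser condition. Under all these omissions the pupal test called 27 to 50 of the 89 and 266 to 578 of all transcripts, in either direction. The stage-dependence test called 5 to 12 of the 89, and its calls over all transcripts were not counted in these fits. With 20 arrays 489 of all transcripts were called in either direction, 239 of them lower in Tkv wings. The fit of the 10 pupal arrays alone called 289 in either direction. The cause of these changes was not tested; fewer arrays entered each of these fits. The median pupal difference stayed between -0.90 and -0.84 and the median share kept between 45.6% and 52.1% under the same omissions. With the replicate block limma called 52 of the 89 and 600 of all transcripts (either direction) in the pupal comparison, and no count moved by over 1.5 times. None of the 26 transcripts given by ID changed the sign of its pupal difference under the settings run for it; FBtr0082438 has no value without the dimmest 25%. The share at -0.6 or lower on left-out pairs, pooled over numbers, was 43.3%, and 33.4 to 50.7% under the alternatives; it was not computed without single arrays, which leave a number incomplete. Limits of these data are the dim range, where 38 members stay, and the missing gene names. RMA is known to compress differences in that range, which was not measured here.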

Other observations

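Among the 89 transcripts, 2 pairs had consecutive IDs. FBtr0079610 and FBtr0079611 had pupal differences of -1.39 and -1.23 and kept 56.1% and 71.9% of the control rise. Their deviations from the group means had a Pearson correlation of 0.649 over the 20 arrays, which share slides and normalization. FBtr0082438 and FBtr0082439 kept 12.04% and 73.5%, and that correlation was -0.09. Whether such neighbours are read by shared probes was not examined.

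The mirror image of the rule among transcripts with a lower level in pupal controls was met by 69 of 2567 transcripts. They were lower in pupal than in larval controls by at least 0.6, higher in pupal Tkv wings than in pupal controls by at least 0.6 and on all 5 pairs, and within the larval limit. Over all 2567 the median Tkv minus control difference in pupal wings was 0.11, and over the 2269 with a control rise it was -0.13, against 0.00 over all transcripts. These medians share the pupal control arrays with the choice of the transcripts.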
